A study of Rattus norvegicus with 71 samples.

Results

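Mesenteric arteries of Fischer344 x Brown Norway rats (FBN) were compared with those of Brown Norway rats (BN) at 15 months of age. The 12 arrays, 6 of each strain, were chosen by the tissue, strain and age in the sample labels, out of 71 arrays of aorta and mesenteric artery of both strains at 6, 15 and 24 months. Total RNA was hybridised to Affymetrix rat arrays, and a value is the MAS5 signal of a probe set, a group of short probes meant to read 1 transcript. Beside the 15-month mesenteric groups, the 6-month mesenteric groups (6 FBN, 6 BN) and the 15-month aorta groups (6 FBN, 5 BN) are used for comparison.

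The labels give the same protocols for all these groups and no drug treatment. They cite a model in which collateral arteries form beside an occluded artery, without saying which vessels came from it. Sex, housing, replicate numbers and the number of animals behind an array are not in the labels, so p-values measure the spread between arrays, which may be technical in part. FBN rats carry BN alleles too, since BN is one of the crossed strains. The weight of tissue behind an array ranged from 6.3 to 20.7 mg in FBN and from 12.1 to 18.5 mg in BN.

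A small muscular artery has an inner endothelium, a middle coat of smooth muscle that sets its diameter, and an outer coat of fibroblasts and matrix. In the mesentery the artery runs between sheets of mesothelium, the flat epithelium that covers the abdominal organs, and is embedded in white fat. Fat cells make fatty acids through Acly, Acaca, Fasn and the Scd desaturases, while mitochondria burn them through the carnitine transferases and the enzymes of beta-oxidation. Inbred strains also differ in the sequence of many genes, among them those of the RT1 complex, the major histocompatibility complex of the rat.

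The arrays carried the RNA of a muscular artery in both strains. Smooth muscle myosin heavy chain (Myh11) had a signal of 57530 ± 9279 in FBN and 61969 ± 6475 in BN (mean ± SD, n = 6 each), and smooth muscle actin (Acta2) one of 38361 ± 11957 and 35601 ± 7192. Gene lists were counted with 1 probe set a gene, that of highest mean signal. By that count 0 of the 19 contractile genes passed limma's test (1 had an unadjusted p under 0.05), while another probe set of Synpo2, an actin-binding protein of muscle, was called at -0.72. Of 15 endothelial genes 0 passed (3 had an unadjusted p under 0.05). Over all 16717 tested probe sets, 2672 had an unadjusted p under 0.05. Arrays of a group correlated at 0.903 or more in FBN and at 0.947 or more in BN, across tested probe sets. The summed signal of 11 white adipocyte markers ran from 44111 to 185322 in FBN and from 89571 to 136881 in BN, with FBN array 3 lowest and FBN array 1 highest of all 12. In bulk RNA fewer cells of a type and less RNA per cell cannot be told apart.

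Of 16717 tested probe sets, 522 (3.12%) differed between the strains at 15 months by limma at an adjusted p of 0.05. There were 288 (1.72%) higher in FBN, for 193 named genes, and 234 (1.4%) lower, for 151 named genes, and 162 of the 522 lacked a single gene symbol. The median size among these was 0.62 on the log2 scale, and 106 exceeded 1 log2 unit, 66 higher and 40 lower. Every FBN array lay above every BN array for 161 of the 288 higher probe sets, against 1.29% of all tested, and below for 113 of the 234 lower ones, against 0.933%.

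The largest difference of a named gene was that of Trio, an exchange factor that activates the GTPase Rac. Its signals were 3144, 2632, 3387, 3663, 3712 and 3945 on the FBN arrays, and 308, 167, 165, 254, 149 and 289 on the BN arrays. The lowest FBN array was above the highest BN array, and the log2 difference was 3.99 ± 0.14 (SE, limma adjusted p = 8.91e-21), a 15.9-fold higher signal. The same probe set differed by 3.70 at 6 months and by 3.78 in aorta, both in other arrays. A second tested probe set of Trio differed by -0.14 and did not pass.

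Msrb3, which repairs oxidised methionine, and Echdc2, a mitochondrial protein related to the enoyl-CoA hydratases, followed. Msrb3 read 3118, 3425, 6365, 6052, 4396 and 2011 in FBN and 343, 462, 317, 548, 435 and 664 in BN, a log2 difference of 3.13 ± 0.24 (limma adjusted p = 2.53e-11). Echdc2 read 813, 895, 1138, 928, 817 and 705 in FBN and 80.2, 96.0, 112, 95.1, 157 and 117 in BN, a difference of 3.03 ± 0.25 (limma adjusted p = 1.37e-10). In both genes the groups were apart, and both were also higher at 6 months (2.70 and 3.56) and in aorta (3.95 and 2.79). The other tested Msrb3 probe set differed by -0.03 and did not pass.

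Genes that act on the cell surface and on cell shape were among the next. Itga1, the collagen-binding integrin subunit alpha 1 of smooth muscle, read 6261, 7007, 11698, 10724, 9541 and 6066 in FBN and 2643, 2108, 1741, 2654, 2153 and 3809 in BN. The log2 difference was 1.76 ± 0.20 (limma adjusted p = 1.75e-07), with no overlap of the groups, and it was 1.62 at 6 months. In aorta Itga1 differed by 2.91, and the difference between the vessels passed the test at -1.15 ± 0.34 (limma adjusted p = 0.0257). That vessel call was lost without aorta array 4 (0.0513), 5 (0.0549) or 6 (0.0670) of FBN or array 4 of BN (0.0693), under quantile normalization (0.0542) and with tissue mass as a covariate (0.0623). Fry, a large scaffold protein of cell shape, was higher by 1.28 ± 0.14 with signals from 451 to 595 against 187 to 274. Arhgap1, which switches off the GTPase Cdc42, was higher by 1.38 ± 0.37 (limma adjusted p = 0.0278) with signals from 239.6 to 409 against 18.6 to 199.7. Its 2 other tested probe sets, at -0.01 and 0.14, did not pass. The low Arhgap1 end was BN array 5 alone, and without it the difference was 0.85 and the adjusted p 0.0501. Without FBN array 2 or 4 the adjusted p of Arhgap1 was 0.0655 and 0.0676.

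Several metabolic and mitochondrial genes were higher in FBN. Prps2, which makes the sugar phosphate for nucleotide synthesis, had signals of 6609 to 11431 in FBN and 2266 to 3151 in BN, a log2 difference of 1.68 ± 0.13 (limma adjusted p = 1.65e-11). Both other tested probe sets of Prps2 also passed, at 1.80 and 1.90. Rtn4ip1, a mitochondrial oxidoreductase, was higher by 1.31 ± 0.17, and Uqcc5, an assembly factor of respiratory complex III, by 1.47 ± 0.25, both with no overlap. Mrpl52, a mitochondrial ribosomal protein, had signals of 1429 ± 168 in FBN and 606 ± 70.3 in BN (SD, n = 6 each), a difference of 1.24 ± 0.13, and its other probe set, at 0.18, did not pass.

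Nr4a3, an inducible orphan nuclear receptor, read 922, 1076, 1031, 2146, 1516 and 847 in FBN and 365, 178, 157, 111, 289.9 and 139 in BN. The difference of 2.65 ± 0.69 passed at a limma adjusted p of 0.0221, with no overlap, but 2 other probe sets of Nr4a3 differed by -0.11 and 0.04. Leaving out FBN array 4 or BN array 4 raised the adjusted p to 0.0615 and 0.0545. Fubp3, a DNA- and RNA-binding protein, was higher by 1.65 ± 0.13 with signals of 592 to 729 against 144 to 258, but its other probe set was called in the opposite direction, at -0.58. Rtel1, the helicase that dismantles loops at telomeres, was higher by 1.09 ± 0.10, Mdm4, an inhibitor of p53, by 0.95 ± 0.11, and Glcci1, a glucocorticoid-induced transcript, by 1.21 ± 0.12. The other tested probe sets did not pass, at 0.62 for Rtel1, 0.13 for Mdm4 and -0.17 and 0.20 for Glcci1. Tiparp, an ADP-ribosyltransferase induced by the aryl hydrocarbon receptor, was higher by 1.48 ± 0.34, with overlapping groups (172 to 573 against 72.5 to 178), and its other probe set, at 0.11, did not pass. The Tiparp call was lost without FBN arrays 1 and 2 together (1.33, limma adjusted p = 0.0594). It was also lost with the end-to-start ratio of control transcripts as a covariate (1.13, 0.0507). Grifin, a relative of the galectins known from the lens, was higher by 2.20 ± 0.33 with signals of 851 to 3187 against 275 to 494.

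**Figure D1:**
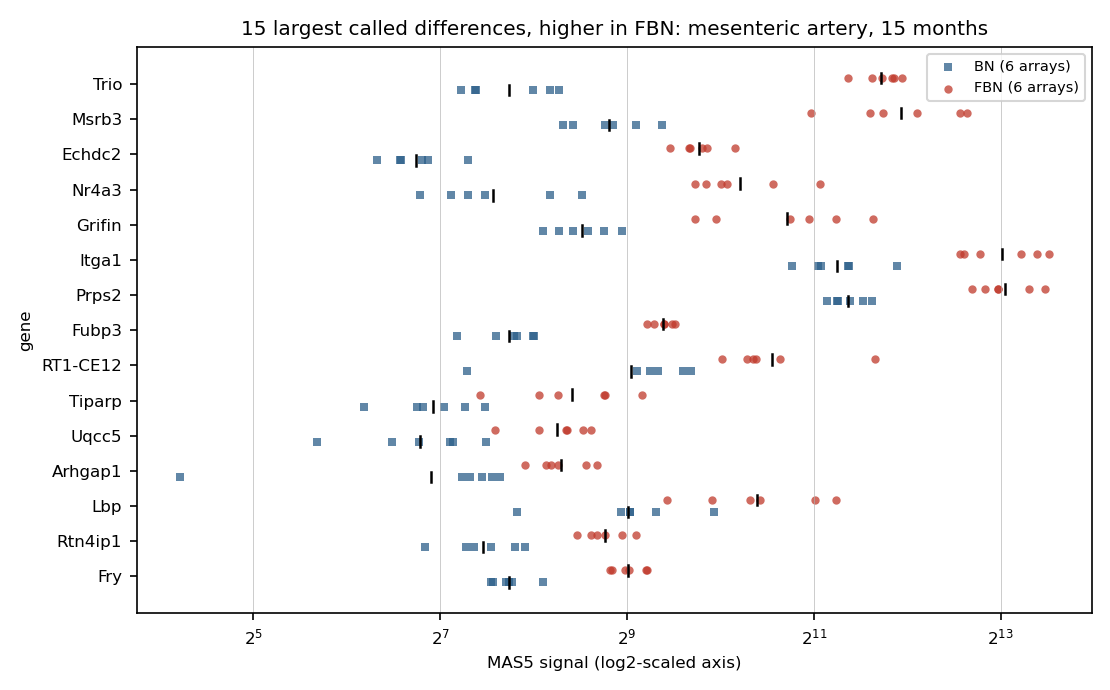
MAS5 signal (log2-scaled horizontal axis) of the 15 genes with the largest called rise in FBN at 15 months among those whose higher group mean reached the filter value, 1 point per array, FBN as circles and BN as squares, with black bars at the mean of log2 signal. In 13 of the 15 genes no FBN point falls among the BN points, the exceptions being Tiparp and Lbp.

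Called probe sets were set beside the other tested probe sets of their gene. Of the 101 higher probe sets whose gene had another tested probe set, 19 (18.8%, against 1.72% of all tested called higher) had another one called in the same direction, and 77 had another of the same sign. Of the 70 lower ones, 12 (17.1%, against 1.4% called lower) had another called lower and 47 another of the same sign. Probe sets of a gene read different stretches of its transcripts. Whether their disagreement lies in isoforms or in a strain's sequence under the probes was not tested. Beyond the named genes, a probe set without a gene symbol had the highest log2 difference of all called, 4.87 ± 0.68, with signals of 493 to 2727 in FBN and 9.69 to 149 in BN. It was singled out after its values were seen, and it differed by 5.70 at 6 months and by 5.37 in aorta. Some called genes stayed outside the ranking because the mean of their higher group was below the filter value, among them Dmp1, a bone matrix protein, at 2.02 (153 to 463 against 35.3 to 96.2), and Popdc3, a membrane protein of muscle, at -2.49.

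Among the lower genes were markers of mesothelium. Of 7 tested mesothelial genes, 5 were called lower in FBN, against 1.4% of all tested, and 0 higher, with a list median of -1.14 beside a median of 0.01 over all tested probe sets. Upk1b, a uroplakin of urothelium and mesothelium, read 213, 167, 107, 155, 159 and 333 in FBN and 434, 288, 639, 963, 392.3 and 1388 in BN, a log2 difference of -1.73 ± 0.38 (limma adjusted p = 0.00434). Lrrn4, a leucine-rich repeat protein of mesothelial cells, read 253, 246, 230, 173, 166 and 241 in FBN and 566, 284, 627, 1202, 272 and 1211 in BN, a difference of -1.44 ± 0.28 (limma adjusted p = 0.00125). Lrrn4 did not overlap between the strains, while in Upk1b FBN array 6 reached above the lowest BN array.

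Msln, the surface protein mesothelin, was lower by -1.17 ± 0.31 (280 to 576 against 473 to 2190). The keratins Krt18 and Krt19, of simple epithelia, were lower by -1.14 ± 0.33 and -1.12 ± 0.30. Wt1, the transcription factor of mesothelium, differed by -0.35 and Krt8 by 0.08, and neither passed. BN arrays 4 and 6 gave the highest of Upk1b, Lrrn4 and Msln.

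The calls of Msln, Krt18 and Krt19 depended on single arrays. Without BN array 6, Msln differed by -0.91 (limma adjusted p = 0.0818), Krt18 by -0.92 (0.124) and Krt19 by -0.86 (0.0987). Without BN array 4 the adjusted p was 0.0825, 0.109 and 0.0958. Leaving out FBN array 1 gave 0.0601, 0.129 and 0.0952, and FBN array 3 gave 0.0618 for Msln and 0.0770 for Krt19. Krt18 also lost its call without FBN array 2 (0.120), 4 (0.103) or 5 (0.0541) or BN array 1 (0.0662) or 3 (0.0848), Krt19 without FBN array 4 (0.0673) or BN array 3 (0.0590), and Msln without FBN array 5 (0.0578). The count of 5 mesothelial genes became 2 without FBN arrays 3 and 4, the pair of lowest tissue mass, 2 without FBN arrays 1 and 2, the pair of lowest Gapdh ratio, 2 with the end-to-start ratio as a covariate, 3 in the fit without 24-month arrays, and 1 in a fit of the 12 arrays alone.

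The summed signal of all 8 mesothelial genes on the array was 1908, 2074, 2129, 1988, 2028 and 5056 on the FBN arrays and 3295, 2344, 4740, 7095, 3053 and 9054 on the BN arrays. Of the FBN arrays 5 lay below every BN array, and FBN array 6, the heaviest sample at 20.7 mg, lay among them. At 6 months 0 of the 7 were called in either direction by limma, with a median of 0.06. In aorta at 15 months 1 of the 7 was called lower, Lrrn4 at -1.47, against 11.4% of all tested. Krt18 was the 1 called higher there, at 0.91, against 10.1%, and the aortic median was -0.31. The part of sampled mesothelium in the result was not tested.

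The age dependence was tested directly for each gene, as the strain difference at 15 months minus that at 6 months. That test called 372 of 16717 probe sets (2.23%), 199 positive (1.19%) and 173 negative (1.03%), and it shares its 15-month arrays with the main comparison. It was -2.19 ± 0.53 for Upk1b (limma adjusted p = 0.0261) and -1.62 ± 0.43 for Msln (limma adjusted p = 0.0413). The Upk1b call was lost without FBN array 2 of 6 months (-2.04, adjusted p = 0.0569) and with the poly-A spike as a covariate (-2.15, 0.0572), and that of Msln without any of 13 of the 24 arrays, with adjusted p from 0.0524 to 0.0889. It was -1.34 for Lrrn4, -1.20 for Krt18 and -1.07 for Krt19, and these did not pass. At 6 months Upk1b ran from 163 to 632 in FBN and from 155 to 424 in BN, and Msln from 358 to 1101 and from 452 to 662. The strains overlapped widely at that age.

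Meg3, an imprinted long noncoding RNA expressed from the maternal copy, was lower in FBN at 15 months, and both the age and the vessel difference passed the test. It read 203, 434, 303, 398, 437 and 705 in FBN and 1215, 892, 1008, 1040, 1140 and 1066 in BN, a log2 difference of -1.45 ± 0.23 (limma adjusted p = 0.000101). No FBN array reached the BN range. At 6 months FBN ran from 633 to 1182 and BN from 442 to 702, a difference of 0.39 that did not pass, and in aorta the difference was -0.01. The age difference was -1.85 ± 0.33 (limma adjusted p = 0.00282) and the vessel difference -1.44 ± 0.35 (limma adjusted p = 0.00855).

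Kcnd3, the pore subunit of a rapidly inactivating potassium channel (Kv4.3), was lower in FBN by -1.13 ± 0.13 (limma adjusted p = 3.6e-07). Its signals were 635, 579, 757, 790, 727 and 531 in FBN and 1465, 1445, 1125, 1496, 1674 and 1536 in BN, with no overlap. A second probe set was called too, at -0.72. At 6 months the difference was -0.42 ± 0.13 (limma adjusted p = 0.0393), and the age difference of -0.71 ± 0.19 passed (limma adjusted p = 0.0413), as did the vessel difference of -0.76 ± 0.22 (limma adjusted p = 0.0224). Leaving out any of 13 of 24 arrays ended the call of the age difference of Kcnd3, with adjusted p from 0.0506 to 0.0900.

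C3, Lamb3 and Cbr3 were called lower at both ages. Complement C3 read 407, 508, 73.9, 215, 316 and 859 in FBN and 731, 825, 1174, 1772, 582 and 1186 in BN, a log2 difference of -1.65 ± 0.41 (limma adjusted p = 0.0159), and it was -1.38 at 6 months. FBN array 6 overlapped the BN range. Without FBN array 3 C3 differed by -1.24 (limma adjusted p = 0.0567), and without BN array 4 by -1.48 (0.0528). Lamb3, a laminin chain of epithelial basement membranes, ran from 107 to 194 in FBN and from 386 to 535 in BN, lower by -1.53 ± 0.35, and by -1.21 at 6 months. Cbr3, a carbonyl reductase, was lower by -1.25 ± 0.30, and by -1.20 at 6 months and -1.13 in aorta. Without FBN arrays 3 and 4 together C3 differed by -1.005 (limma adjusted p = 0.160), Lamb3 by -1.31 (0.0628) and Cbr3 by -1.03 (0.0822).

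The remaining large falls were of genes known from fat, blood and epithelium. Lgals12, a galectin of adipocytes, ran from 141 to 499.9 in FBN and from 508 to 1092 in BN, lower by -1.47 ± 0.31, and by -1.45 in aorta. Wfdc21, a small secreted protein of the whey acidic family, was lower by -1.72 ± 0.30 (445 to 1120 against 899.8 to 4792), with an age difference of -1.76 ± 0.43 (limma adjusted p = 0.0282) that lost its call without FBN array 2 of 6 months (0.0610) or FBN array 1 of 15 months (0.0585), with the poly-A spike as a covariate (0.0746) and without the 24-month arrays (0.0664). Ctdspl, a small phosphatase, was lower by -1.31 ± 0.23 with no overlap, and its 2 other tested probe sets, at -0.26 and -0.14, did not pass. The haemoglobin gene Hba-a3 was lower by -1.71 ± 0.48 at a limma adjusted p of 0.0407. That call was lost on leaving out FBN array 1 (0.125), 3 (0.0907) or 5 (0.103), or BN array 2 (0.0537), 3 (0.0751), 4 (0.0838) or 6 (0.0975). The erythrocyte genes Hbb and Alas2 differed by -0.58 and -0.71 and did not pass.

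**Figure D2:**
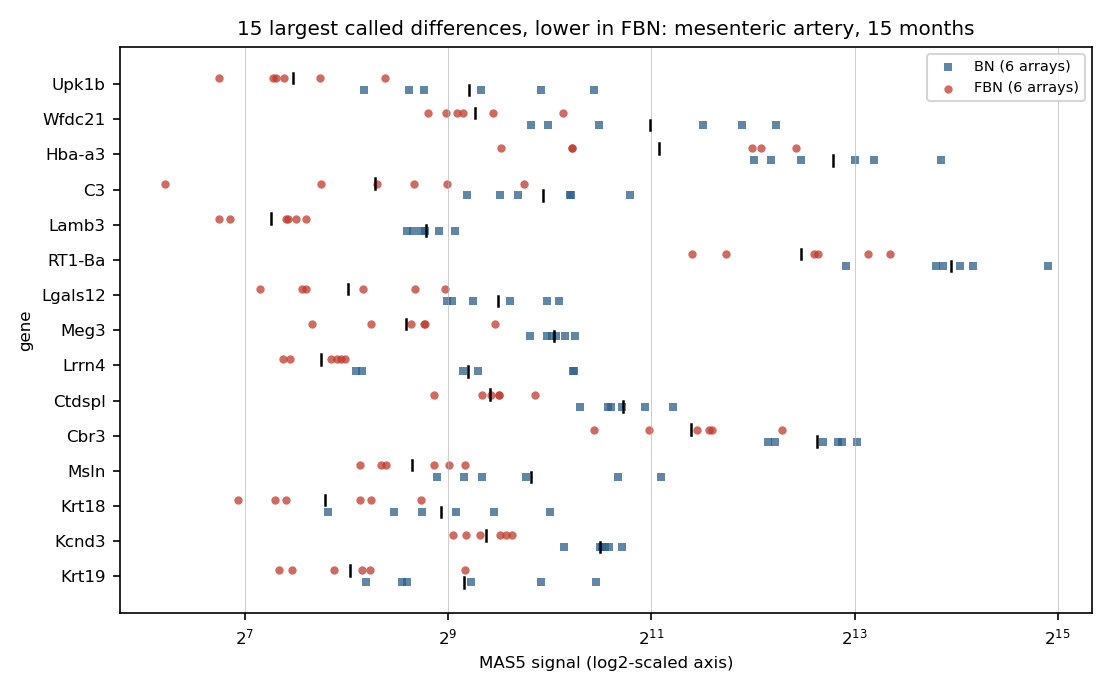
MAS5 signal (log2-scaled horizontal axis) of the 15 genes with the largest called fall in FBN at 15 months among those whose higher group mean reached the filter value, 1 point per array, FBN as circles and BN as squares, with black bars at the mean of log2 signal. The strains do not overlap in 6 of the 15 genes, Lamb3, Lgals12, Meg3, Lrrn4, Ctdspl and Kcnd3.

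Fatty acid synthesis and oxidation were counted as separate lists. All 10 tested genes of fatty acid synthesis had a negative log2 difference, with a median of -0.38, and 2 of the 10 were called lower against 1.4% of all tested. Fasn, the fatty acid synthase, read 10906, 7544, 3763, 9775, 6663 and 5424 in FBN and 16698, 15427, 18135, 13480, 11369 and 10101 in BN, a log2 difference of -1.01 ± 0.24 (limma adjusted p = 0.0118). Only FBN array 1 reached into the BN range, and a second probe set of Fasn was called at -1.12. Acaca, which makes the malonyl-CoA that Fasn uses, had a mean signal of 3078 ± 519.7 in FBN and 5370 ± 1477 in BN (SD, n = 6 each), with 1 FBN array inside the BN range, and was lower by -0.78 ± 0.16 (limma adjusted p = 0.00284). A second Acaca probe set differed by 0.03, and in a fit of all 71 arrays the adjusted p of Acaca was 0.290.

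The stearoyl-CoA desaturase Scd, which makes monounsaturated fatty acids, read 1712, 1250, 102, 1515, 453 and 828 in FBN and 2631, 3741, 7443, 4073, 934 and 844 in BN. The groups overlapped, and the difference of -1.82 ± 0.61 did not pass (limma adjusted p = 0.100). At 6 months the order was the opposite, with FBN from 2416 to 6094, all above BN at 169 to 749, a difference of 3.66 ± 0.61 (limma adjusted p = 0.000129). The age difference of Scd was -5.47 ± 0.86 (limma adjusted p = 0.000827), and it ranged from -6.20 to -4.91 and stayed past the threshold in 9 alternatives and on leaving out each of 24 arrays.

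Acaca and Fasn showed the same order of ages. Their age differences were -1.55 ± 0.23 (limma adjusted p = 0.000689) and -1.55 ± 0.34 (limma adjusted p = 0.0164), and that of Scd2 was -0.97 ± 0.23 (limma adjusted p = 0.0217). Leaving out each of 24 arrays ended 0 of these 3 calls. Of 9 alternatives, 1 ended the call of Scd2 and 0 ended those of Acaca and Fasn. At 6 months Acaca was higher in FBN by 0.77, and the list held 3 genes called higher and 0 called lower, against 5.06% and 5.73% of all tested. In BN the mean Fasn signal was 9095 ± 2097 at 6 months and 14201 ± 3116 at 15 months, while in FBN it was 13103 ± 2497 and 7346 ± 2669. In aorta at 15 months 7 of the 10 were called lower in FBN, against 11.4% of all tested, Fasn by -1.46 and Acaca by -1.84. In the same aortic comparison 7 of 10 white adipocyte markers (median -1.12), 4 of 7 brown adipocyte markers (median -1.16) and 33 of 45 genes of respiratory complexes were called lower, and their part in the aortic lipid values was not tested.

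The promoters of the desaturase genes are shown because Scd and Scd2 both passed the test of the age difference. They were taken from RefSeq (build GRCr8), 250 bases before to 50 after the start of each gene, and 7 of the 10 members matched the table. Motifs were searched on both strands: the CCAAT box (letters CCAAT), the GC box (letters GGGCGG), the E-box (letters CACGTG) and the core of a sterol regulatory element (letters TCACNCCAC). Capitals mark a match.
Scd, chr1:253231682-253231981, minus strand: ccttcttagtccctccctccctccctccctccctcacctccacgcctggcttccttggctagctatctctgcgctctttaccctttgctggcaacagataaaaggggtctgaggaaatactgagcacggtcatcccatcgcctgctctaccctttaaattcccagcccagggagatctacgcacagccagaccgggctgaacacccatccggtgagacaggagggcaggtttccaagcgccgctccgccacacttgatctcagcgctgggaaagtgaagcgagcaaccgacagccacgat
Scd2, chr1:253118127-253118426, plus strand: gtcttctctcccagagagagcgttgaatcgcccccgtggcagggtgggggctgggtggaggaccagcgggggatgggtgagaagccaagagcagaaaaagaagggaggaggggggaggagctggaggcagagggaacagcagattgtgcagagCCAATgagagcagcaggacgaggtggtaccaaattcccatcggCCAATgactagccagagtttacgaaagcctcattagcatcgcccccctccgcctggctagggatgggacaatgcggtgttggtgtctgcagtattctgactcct
The Scd2 window held CCAAT at 2 places and none of the other motifs, and the Scd window held none of these letters. The CCAAT box was present in 37.5% of 33469 promoters of the same length, the GC box in 33.1%, the E-box in 6.42% and the sterol element core in 1.12%. A match is a description of the letters only.

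The 13 tested genes of fatty acid oxidation all had a positive difference, with a median of 0.31, and 2 were called higher against 1.72% of all tested. Acaa2, the last enzyme of a beta-oxidation cycle, read 4517, 4470, 4815, 4980, 5341 and 4287 in FBN and 2365, 2216, 2263, 2964, 2748 and 2314 in BN, a log2 difference of 0.94 ± 0.12 (limma adjusted p = 1.26e-06) with no overlap. It was 0.12 at 6 months, and the age difference of 0.82 ± 0.17 passed (limma adjusted p = 0.0100). Cpt1a, which brings fatty acids to the mitochondrion, was higher by 0.55 ± 0.13 (5157 to 9986 against 3372 to 5589), and a second probe set by 0.91. Without FBN arrays 3 and 4 Cpt1a differed by 0.35 (limma adjusted p = 0.114), and in a fit of all 71 arrays the adjusted p was 0.466 for Cpt1a and 0.113 for Acaa2. In aorta 11 of the 13 were called lower in FBN, against 11.4% of all tested, beside the adipocyte and respiratory counts given above for that comparison, and for Acaa2 the difference between vessels was 2.26 ± 0.44 (limma adjusted p = 0.00184).

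White adipocyte markers gave no call between the strains. None of 10 tested passed limma's test (0 had an unadjusted p under 0.05). Of the 10, 8 had a negative and 2 a positive difference, with a median of -0.31. The adipokine Adipoq ran from 2707 to 25560 in FBN and from 10823 to 20071 in BN, and the FBN array with the lowest Adipoq, array 3, also had the lowest Fasn and Scd. Without FBN arrays 3 and 4 the count of fatty acid synthesis genes called lower remained 2, and it was 2 without FBN arrays 1 and 2. FBN arrays 3 and 4 were the pair of lowest tissue mass. The lowest white adipocyte sums in FBN were those of arrays 3 (44111) and 6 (76217). The part of fat content in the lipid results was not tested.

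**Figure D3:**
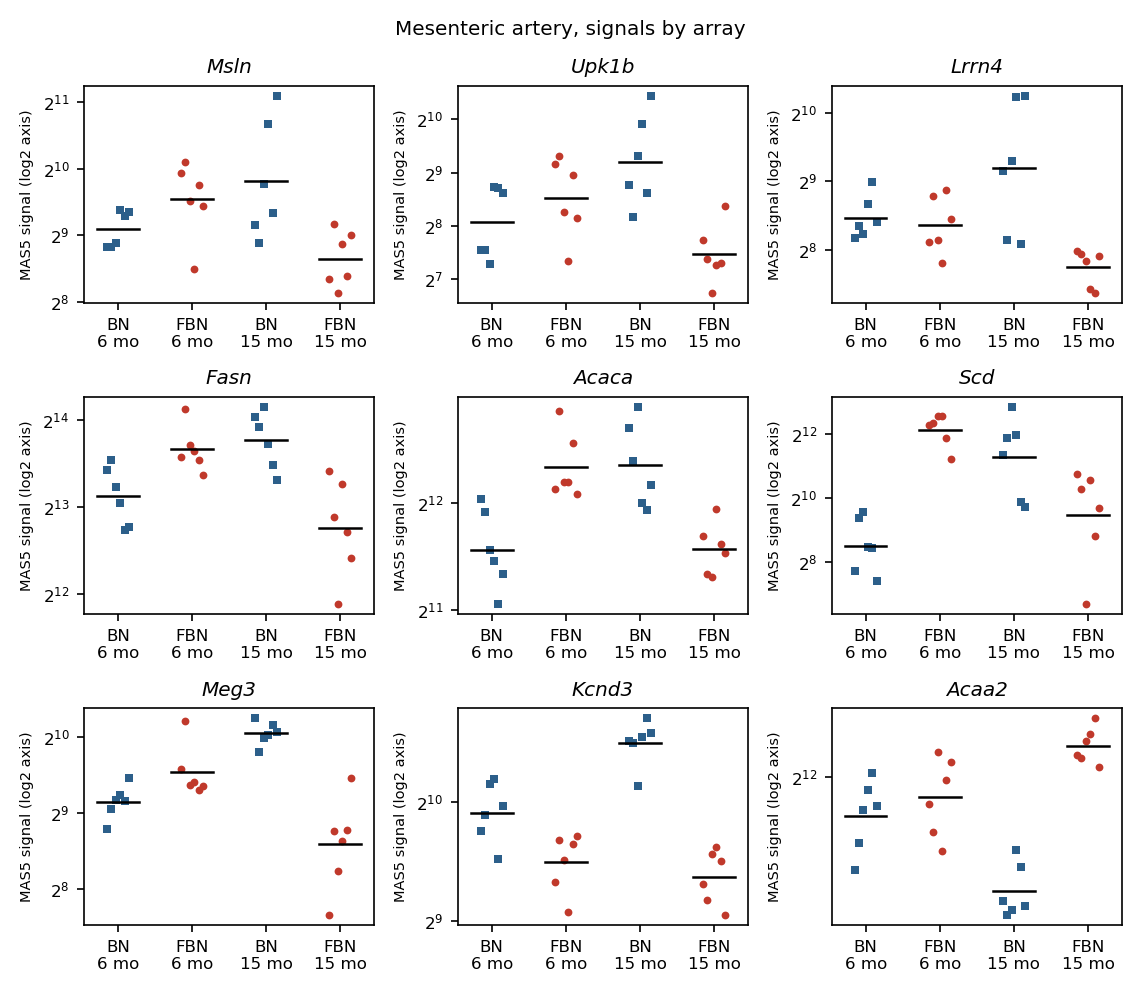
MAS5 signal (log2-scaled vertical axis) of 9 genes in mesenteric artery, 1 point per array in the 4 groups of strain and age, with black bars at the mean of log2 signal. Fasn, Acaca and Scd are higher in FBN than in BN on average at 6 months and lower at 15 months, Meg3 is lower in FBN at 15 months, and Acaa2 is apart between the strains at 15 months.

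In the RT1 complex 1 of 14 tested genes was called higher and 1 lower, against 1.72% and 1.4% of all tested. RT1-CE12, a class I gene, read 1595, 1033, 1243, 1304, 1334 and 3219 in FBN and 821, 775, 645, 553, 608 and 156 in BN, a log2 difference of 1.51 ± 0.27 (limma adjusted p = 0.00052), with no overlap. In a fit of the 12 arrays alone the limma adjusted p of RT1-CE12 was 0.0567. The class II chain RT1-Ba, which presents peptides to helper T cells, ran from 2697 to 10443 in FBN and from 7733 to 30641 in BN, lower by -1.48 ± 0.36 (limma adjusted p = 0.0134). Of its 2 other tested probe sets 1 was called lower and the values were -1.41 and 1.13. At 6 months RT1-CE12 differed by 1.02 and RT1-Ba by -1.28, and both passed. RT1 genes are near-identical copies of one another, so a probe set may read more than the gene it is named for.

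All 8 class II presentation genes had negative differences, with a median of -0.55, and RT1-Ba alone among them passed. Without FBN arrays 3 and 4 RT1-Ba differed by -1.02 at an adjusted p of 0.144. The class II transactivator Ciita differed by -0.49 and the invariant chain Cd74 by -0.60. Macrophage genes gave 0 calls of 14 by limma (0 with an unadjusted p under 0.05), with a median of -0.15.

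Of 18 tested interferon-stimulated genes 2 were called higher, against 1.72% of all tested, at a median of 0.22. Irf7, a transcription factor of the interferon response, read 1176, 1151, 733, 1074, 1341 and 4277 in FBN and 780, 879, 831, 645, 691 and 677 in BN, a log2 difference of 0.86 ± 0.24 (limma adjusted p = 0.0387). FBN array 6 stood far above the others, and without it the difference was 0.53 and the adjusted p 0.0663. Irf7 also lost its call without FBN array 5 (0.0640) or without BN array 1 (0.0616), 3 (0.0503), 4 (0.0813), 5 (0.0795) or 6 (0.0676). Ifi27 was higher by 0.52 ± 0.15 at an adjusted p of 0.0450, and 8 of the 12 arrays ended that call when left out, with adjusted p from 0.0745 to 0.121.

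The chemokine Ccl5, which attracts T cells, was the only 1 of 9 tested inflammatory mediators called, against 1.72% of all tested called higher. It was higher by 0.98 ± 0.27 (189 to 704 against 119 to 355, limma adjusted p = 0.0395). Its age difference was 1.502 ± 0.386 (limma adjusted p = 0.0352), and leaving out any of 9 of 24 arrays ended that call, with adjusted p from 0.0523 to 0.0794. Leaving out any of 9 of the 12 arrays ended the Ccl5 call, with adjusted p from 0.0507 to 0.121. T and NK cell markers summed to 1261 to 3527 in FBN and 1161 to 2080 in BN, and the T cell receptor chain Cd3g differed by 0.99 (limma adjusted p = 0.0623). The part of T cells in the Ccl5 result was not tested. Lbp, which binds bacterial lipopolysaccharide in plasma, was higher by 1.38 ± 0.28 (689.9 to 2407 against 227 to 974). Its call was lost without FBN arrays 1 and 2 together (1.01, limma adjusted p = 0.0552) and in a fit of the 12 arrays alone (0.0567).

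Single members passed in 3 further lists. Tgfb1, the growth factor TGF-beta 1, was the only 1 of 25 Notch, TGF-beta and BMP genes called, higher by 0.54 ± 0.14 (741 to 1120 against 419 to 900.1, limma adjusted p = 0.0217), and by 1.06 in aorta. Its call was lost without FBN array 5 (0.0673), BN array 1 (0.0574) or BN array 6 (0.0745). Gstt3, a glutathione transferase, was lower by -0.55 ± 0.12, by -0.66 at 6 months and by -0.59 in aorta, and by -0.38 without passing when FBN arrays 3 and 4 were left out (limma adjusted p = 0.0793). Gsn, the actin-severing protein gelsolin, was lower by -0.30 ± 0.07, and by -0.19 without passing after quantile normalization. It was the only 1 of 11 fibroblast and adventitia genes called, and Gstt3 the only 1 of 16 glutathione transferases. Of all tested, 1.72% were called higher and 1.4% lower.

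Lists of matrix, vasomotor, channel, antioxidant and respiratory genes held no limma call at 15 months. Each gene was read by its probe set of highest mean signal. The counts in brackets below stand beside 2672 of all 16717 tested probe sets with an unadjusted p under 0.05. Outside these lists Itga1 and Kcnd3 were called, as were a probe set of Synpo2 and a probe set of Rock2. There were 0 calls among 31 collagen and elastic matrix genes (5 with an unadjusted p under 0.05, all lower), 19 vasomotor and nitric oxide genes (7), 18 smooth muscle channels and pumps (6), 24 NADPH oxidase and antioxidant genes (2) and 45 genes of respiratory complexes II to V (5). The nearest matrix genes were Col8a1 at -0.69 (limma adjusted p = 0.0612) and tenascin C, Tnc, at -0.997 (0.0742). Immediate early genes gave 0 calls of 20 with 17 positive values and a median of 0.37 (5 with an unadjusted p under 0.05), Fos at 0.96 and Egr2 at 1.08. Other probe sets of the immediate early genes Nr4a3 (2.65, described above) and Klf2 (0.71) were called, so the count of 0 holds for the probe sets of highest mean signal. Of 26 lists without a call, 3 had another probe set of a member called, the third being brown adipocyte, with Ppargc1a at -0.80. Heat shock genes gave 0 calls of 10 with all 10 negative (4 with an unadjusted p under 0.05), and clock genes 0 calls of 17 (4).

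**Figure D4:**
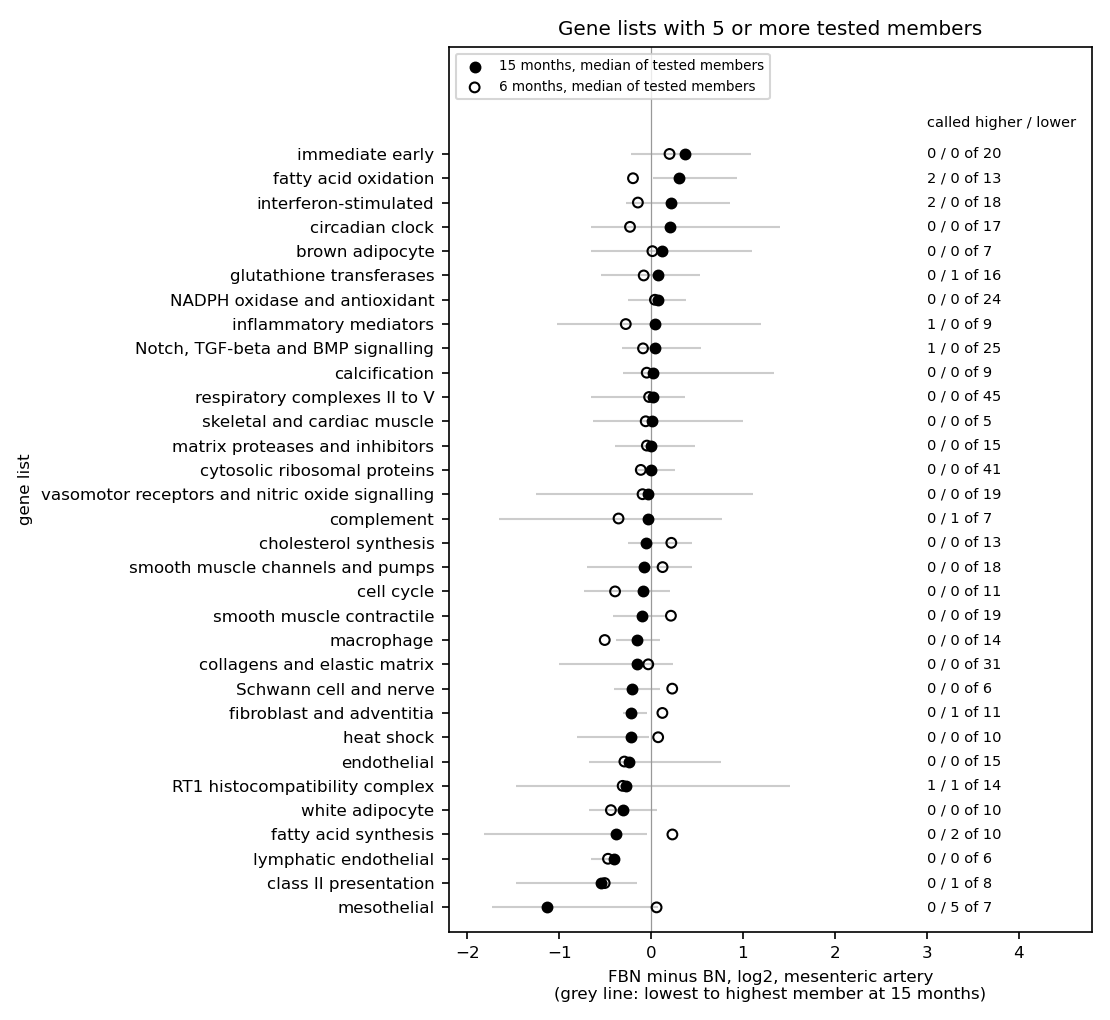
Median FBN minus BN log2 difference over tested members of each gene list with 5 or more of them, in mesenteric artery at 15 months (filled points) and 6 months (open points), with grey lines from the lowest to the highest member at 15 months and the counts called at 15 months on the right. The mesothelial list lies at -1.14 at 15 months and 0.06 at 6 months, and fatty acid synthesis at -0.38 and 0.23.

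The strain difference was set beside the same contrast in other arrays. At 6 months 1804 probe sets (10.8%) were called, and 214 were called in the same direction at both ages, 41.0% of the 15-month calls and 11.9% of the 6-month calls. In aorta at 15 months 3590 (21.5%) were called, and 196 in the same direction, 37.5% of the mesenteric and 5.46% of the aortic calls. The aorta arrays correlated within their group at 0.789 or more in FBN and at 0.949 or more in BN. With tissue mass as a covariate the aortic count was 978. The 522 probe sets had the same sign at 6 months in 75.9% of cases, against 49.4% over all tested, and in aorta in 71.3% against 51.5%. The higher ones were called higher at 6 months in 45.8% of cases and the lower ones called lower in 35.0%.

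Of the 15 largest rises, 10 were also called higher at 6 months and 8 in aorta, against 5.06% and 10.1% of all tested. Of the 15 largest falls, 6 were also called lower at 6 months and 3 in aorta, against 5.73% and 11.4% of all tested. Whether rises and falls differ in this share was not tested. Trio, Msrb3, Echdc2, Itga1, Prps2, Fubp3 and Fry were higher in all 3 settings, as were Rtel1, Mrpl52 and Mdm4 among the genes of smallest p. Krt18 was called in opposite directions in the vessels, lower by -1.14 in mesenteric artery and higher by 0.91 in aorta, and the vessel difference was -2.05 ± 0.46 (limma adjusted p = 0.00506). The test of the vessel difference called 1841 probe sets (11.0%), 6.58% of all tested as more positive in mesenteric artery and 4.43% as more negative.

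**Figure D5:**
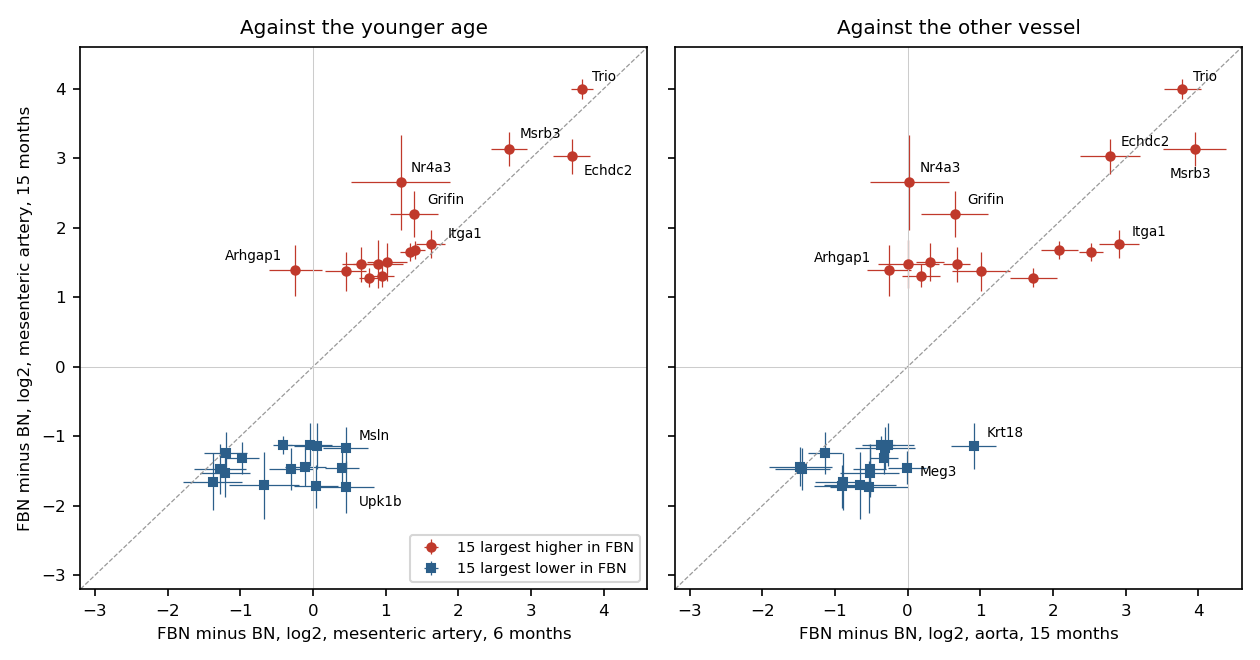
FBN minus BN log2 difference (± SE) of the 15 largest rises (circles) and 15 largest falls (squares) in mesenteric artery at 15 months on the vertical axis, against the same contrast at 6 months (left) and in aorta (right). The dashed line marks equal values. Trio, Msrb3 and Echdc2 lie far from 0 on both axes, while Msln and Upk1b lie slightly right of 0 at 6 months.

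Array quality was compared between the strains by exact two-sided permutation tests of 6 measures. No measure passed after adjustment, and 2 had an unadjusted p under 0.05. The log2 ratio of the end to the start of the Gapdh transcript was 0.664 ± 0.333 in FBN and 1.00 ± 0.0987 in BN (n = 6 each, exact permutation p = 0.0281, adjusted 0.0974). That of Actb was 1.59 ± 0.526 and 2.23 ± 0.274 (n = 6 each, exact permutation p = 0.0325, adjusted 0.0974). FBN arrays 1 and 2, with the lowest ratios, correlated at 0.978 with each other. Without them 410 probe sets were called, and without FBN arrays 3 and 4 445 were.

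Called genes were spread over the chromosomes. Of 9751 tested genes with a position in the RefSeq annotation 340 were called (3.49%), and the highest shares were 6.76% on chromosome 16, 5.57% on chromosome 20, which carries the RT1 complex, and 5.04% on chromosome 18. A called gene had another called gene as its next tested neighbour in 8.53% of cases, against 6.74% for other tested genes. The longest run was E2f6, Rock2 and Slc66a3 on chromosome 6, all 3 higher in FBN. Rock2, a kinase that keeps smooth muscle contracted, was singled out here by its place in that run and after its values were seen: 1 of its 4 tested probe sets passed, at 0.72, and the others lay between -0.06 and 0.17. These shares are descriptions.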

How the data were processed

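RNA of 71 arterial samples was measured on Affymetrix arrays with 31099 probe sets. The deposited intensity values are MAS5 signals on a linear scale, made with GCOS and MAS5 per the submitters' processing notes (versions not given in the sources used here), and their trimmed means, leaving out 2% at each end, lay between 1000.28 and 1000.43. Arrays give no read depth, and the number of arrays limits the precision.

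Values were log2-transformed as deposited. Setting aside 57 control probe sets, testing was limited to the 16717 with a mean log2 signal of at least 8.19 (a signal of 292) over the aorta or the mesenteric arrays. One limma 3.58.1 fit (R 4.3.3) of all 36 mesenteric arrays, with a mean per group and moderated variances (trend, robust), gave the mesenteric differences. The aortic differences came from a separate fit of the aorta arrays, and the vessel difference from a fit of the 71 arrays. Benjamini-Hochberg adjustment ran across the 16717. In an earlier analysis the strain labels of the 24-month mesenteric arrays went against strain markers, so their strain contrast was not used. These arrays entered the estimate of spread, the filter and the choice of the probe set that reads a gene in a list. The annotation gave 20832 probe sets a single symbol, 436 more than 1 and 9780 no symbol.

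Named genes were the 15 largest rises, the 15 largest falls and the 10 smallest p-values of the main comparison, among called probe sets with 1 symbol whose higher group mean reached the filter value, 1 probe set a gene (smallest p), 5 in each direction for the others, and the 4 members of smallest p in each list, where a gene is read by its probe set of highest mean signal. The members and lists were chosen with earlier results of these data known. Scripts were tested on simulated data. Alternatives covered normalization, offset, filter, moderation, array weights, covariates, the arrays fitted and each array left out.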

Additional observations from a re-analysis of the deposited data

Results flagged for a closer look

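Single arrays stood apart from the other 5 of their group in 14 of 326 groups of named genes tested for an outlier (4.29%), while chance flags about 1 in 20. The measure is the gap to the nearest array over the range of the group. The lowest array stood apart among BN for RT1-CE12 (array 6, 0.762), Arhgap1 (array 5, 0.880), Kcnd3 (array 3, 0.630), Adipoq (array 6, 0.627), Plin1 (array 6, 0.643), Prdx3 (array 5, 0.690) and Col6a3 (array 1, 0.732). Among FBN it did so for Spp1 (array 4, 0.700), Col6a3 (array 1, 0.664), Ibsp (array 5, 0.633), Agt (array 3, 0.645), Fdps (array 6, 0.739) and Tgfbr3 (array 3, 0.658). The highest array stood apart for Irf7 (FBN array 6, 0.658).

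The strain difference changed with age by limma's test of that change, at 15 minus 6 months on the log2 scale, for Upk1b (-2.19), Wfdc21 (-1.76), Meg3 (-1.85), Msln (-1.62), Kcnd3 (-0.71), Scd (-5.47) and Prodh (-2.22), and for Osbpl1a (2.51), Nr1d2 (2.43), Spp1 (2.32), Esm1 (2.001) and Cpeb1 (1.98).

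The strain difference at 15 months differed between mesenteric artery and aorta, as mesenteric minus aorta, for Nr4a3 (2.63, limma adjusted p = 0.0479), Itga1 (-1.15), Fubp3 (-0.87), RT1-CE12 (1.201), Arhgap1 (1.64), Rtn4ip1 (1.12), Meg3 (-1.44), Ctdspl (-0.99), Krt18 (-2.05) and Kcnd3 (-0.76). It did so by the greatest amounts among named genes for Adtrp (4.15), Mb (4.13), Odad4 (3.81), Slc27a2 (3.65) and Krt79 (3.38), and for Rup2 (-3.42), Dmp1 (-2.96), Podxl2 (-2.83), Agtr1b (-2.72) and Nrk (-2.68). In aorta the summed brown adipocyte markers, Slc27a2 among them, ran from 56023 to 226423 in FBN and from 198112 to 249300 in BN. The part of fat in these vessel differences was not tested.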

How the results depend on the processing

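The 522 probe sets called at 15 months became 221 with a filter at the 75th percentile, 1108 with array weights, 1130 with the poly-A spike as a covariate, 316 in the 12 arrays alone and 280 in a fit of all 71 arrays, and 389 to 740 on leaving out 1 array. The 1804 at 6 months became 1120 with that filter and 659 with the spike, and 1024 to 2461 on leaving out 1 array (1024 without FBN array 2, 1062 without FBN array 4, 1034 without BN array 5). The 3590 in aorta became 10172 with array weights, 978 with tissue mass as a covariate, 6135 with the spike and 2305 in 15-month arrays alone, and 1634 to 6845 on leaving out 1 array (6845, 2372, 1700, 1828 and 1634 without FBN arrays 2 to 6, 1783 and 1704 without BN arrays 4 and 5). The 372 age differences became 195 without a filter, 125 with the spike and 165 without the 24-month arrays, and 129 to 859 on leaving out 1 array (at 6 months 129, 844 and 204 without FBN arrays 2, 3 and 4, and 228, 131 and 203 without BN arrays 2, 5 and 6; at 15 months 158, 173, 761, 234 and 859 without FBN arrays 1, 2, 3, 4 and 6, and 201 and 179 without BN arrays 1 and 5). The 1841 vessel differences became 8341 with array weights, 804 with mass and 4177 with the spike, and 801 to 5005 on leaving out 1 array (3000, 5005, 820, 892 and 801 without FBN aorta arrays 1, 2, 4, 5 and 6, 974 and 981 without BN aorta arrays 4 and 5). Array quality measures passing after adjustment numbered 0, and 0 to 3 on leaving out 1 array, with 3 without FBN array 3. Serpina3n at 6 months reversed from -1.80 to 0.11 with the spike. The cause was not tested. Of 34 named genes of the main comparison, 20 stayed called under every left-out array and every alternative that tested their probe set, and 0 reversed. The filter at the 75th percentile left some of these probe sets untested. Leaving out FBN arrays 3 and 4 (445 calls), FBN arrays 1 and 2 (410) and fitting the end-to-start ratio (637) were chosen after seeing the data. No paired analysis was possible because the labels give no replicate numbers shared between groups.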

Other observations

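Some genes outside the largest strain differences at 15 months had differences of opposite sign at 15 and 6 months. A passing age difference does not mean that the difference passed at each age. By the probe set of highest mean signal, 0 of 17 clock genes, Nr1d2 among them, were called at 15 months. Nr1d2, a repressor of the circadian clock, differed by 0.76 at 15 months and by -1.67 at 6 months, and Cpeb1, which controls polyadenylation in the cytoplasm, by 0.61 and -1.37. Prodh, the first enzyme of proline breakdown, differed by -0.99 at 15 months and by 1.23 at 6 months. The age differences of Nr1d2, Cpeb1 and Prodh passed limma's test in the alternatives run and on leaving out each of 24 arrays. Those of Osbpl1a, an oxysterol-binding protein, Spp1, the matrix protein osteopontin, and Esm1, an endothelial proteoglycan, lost the call on leaving out 10, 4 and 14 of the 24 arrays.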
